A study of Macaca mulatta with 13 samples.

Results

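The genes described here encode the carriers of the mitochondrial inner membrane (the SLC25 family) and the numbered subunits of the machinery that imports proteins into mitochondria (TIMM and TOMM). A probe set, the group of array probes read out as 1 value, was a member when the platform annotation paired it with a single symbol of SLC25A, TIMM or TOMM followed by a number; SLC25A37 was left out. This gave 83 probe sets for 51 genes, of 14132 genes that the annotation names in this way: 35 SLC25, 11 TIMM and 5 TOMM genes. Each gene was represented by its probe set of highest mean over all arrays. A probe set was tested when that mean lay above 6.04, the median of the means, on the log2 scale of the deposited values. By that rule 39 member genes were tested, namely 24 SLC25, 11 TIMM and 4 TOMM genes. The other 12, which were SLC25A2, SLC25A15, SLC25A18, SLC25A21, SLC25A29, SLC25A30, SLC25A31, SLC25A34, SLC25A35, SLC25A41, SLC25A48 and TOMM70, were not above it and are not described by group.

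The series asks whether gene expression in blood cells differs with the way infant rhesus macaques are reared. Peripheral blood mononuclear cells, the lymphocytes and monocytes of the blood, were taken at 4 months of age, and total RNA was hybridised to 13 Affymetrix rhesus genome arrays. The labels give 5 arrays of maternally reared animals, 4 of peer reared animals and 4 of surrogate-peer reared animals. They name no sex, strain, treatment, batch or pooling, and do not state that each array is a separate animal, so the p-values measure the spread between these arrays. Values are log2 expression from robust multi-array average (RMA). A difference of 1 on this scale is a doubling of signal, and levels of different genes are not compared because probes differ in brightness.

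Mitochondria make only a few of their own proteins and import the rest. The translocase of the outer membrane (TOM) receives precursors from the cytosol. The TIM23 complex of the inner membrane then takes those with a presequence, while the small TIM chaperones carry hydrophobic precursors, among them the SLC25 carriers, to the TIM22 complex. Once inserted, the carriers exchange nucleotides, phosphate, organic acids, amino acids and cofactors between cytosol and matrix. Dividing and activated lymphocytes are known to enlarge their mitochondrial content, which makes these genes of interest in blood.

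Of the 39 tested member genes, 1 passed the test when the peer and surrogate-peer animals together (non-maternal, n = 8) were compared with the maternal animals (n = 5): TOMM20, a receptor of the TOM complex, rose 1.40-fold. The test was limma with Benjamini-Hochberg adjustment over all 26352 tested probe sets and a threshold of 0.05, which called 8.0% of them and called 6.64% higher. The share of members called was 2.56%, and was thus not above the background. At an unadjusted p under 0.05 there were 8 member genes, against 29.0% of all tested probe sets. The median log2 difference, non-maternal minus maternal, was 0.07 over the members and 0.01 over all tested probe sets.

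The import genes and the carriers are described side by side; no test compared them. Of the 15 TIMM and TOMM genes, 13 had a positive difference, with a median of 0.11, 6 were above 0.2 and 1 was below -0.2. Of the 24 SLC25 genes, 12 had a positive difference, with a median of -0.0040, and 4 were above 0.2. Over all tested probe sets 51.0% were positive, 27.0% were above 0.2 and 13.4% were below -0.2. The count of positive import genes was 11 when each array was centred on its median and 10 after quantile normalization, where 42.5% and 46.2% of all probe sets were positive. Dropping maternal array 5 left 10 positive. Without maternal arrays 2 and 5, 8 of 15 import genes (median 0.02) and 14 of 24 SLC25 genes (median 0.06) were positive, so that the import genes no longer had the higher share. These arrays were picked after seeing the data and had the lowest mean over the import genes, at 9.21 and 8.96. Their removal therefore had to lower the mean import difference. With the ratio of 3' to 5' signal of control genes, a measure of RNA integrity, as a covariate, the counts were 14 of 15 and 16 of 24. These counts describe genes that were mostly not past the test.

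**Figure D1:**
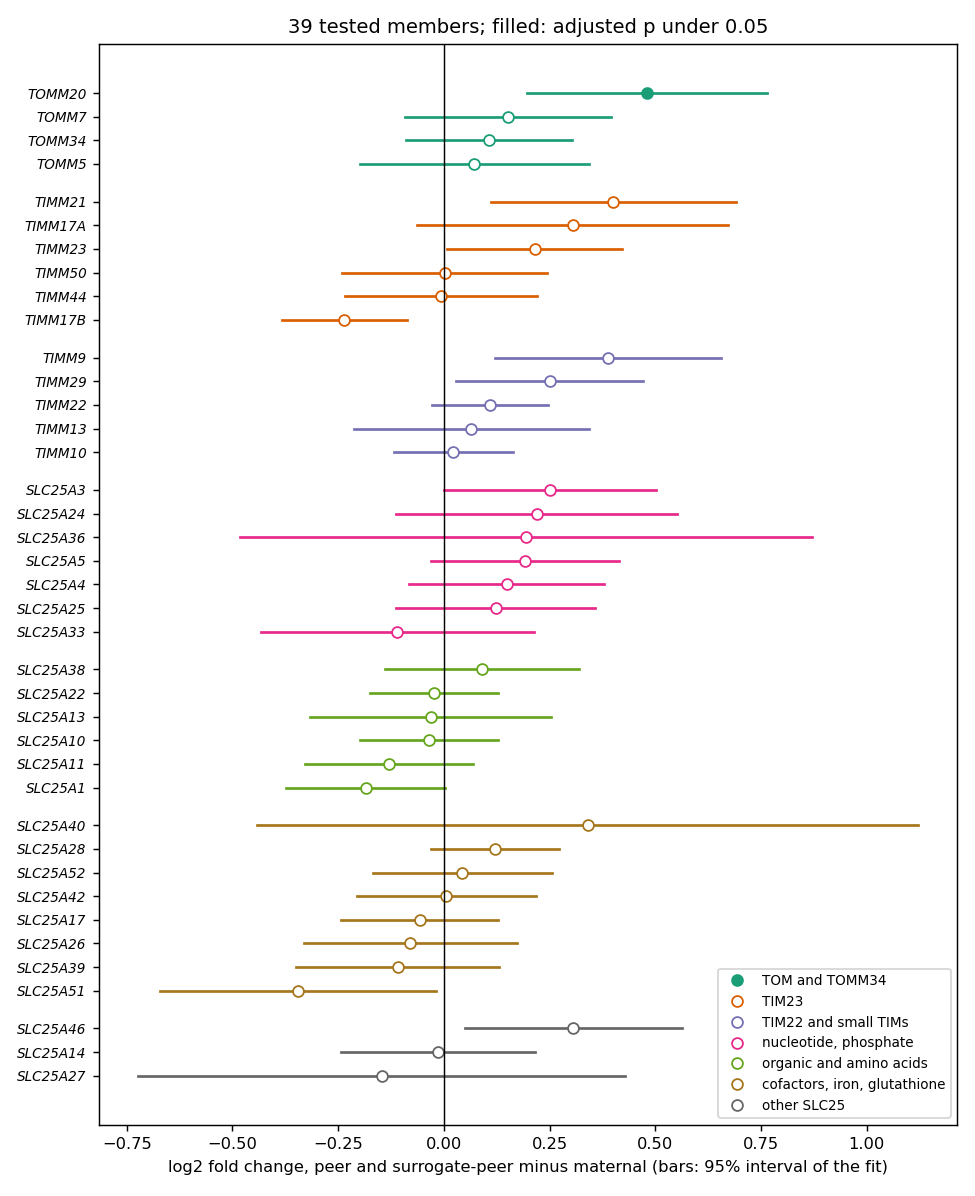
Log2 difference, non-maternal minus maternal, of each tested member gene, grouped by role, with 95% confidence intervals from limma; the vertical line is 0 and a filled point is past the threshold. All 4 TOM genes and all 5 genes of the TIM22 group lie right of 0, while 1 of the 6 metabolite carriers does. Of all tested probe sets 51.0% lie right of 0. TOMM20, at 0.48, is the gene past the threshold.

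The outer membrane receptors and pore subunits are considered first. TOMM20 recognises the presequence of precursor proteins at the mitochondrial surface. Its log2 values were 9.51, 9.50, 9.17, 8.65 and 8.98 in maternal arrays 1 to 5. They were 9.84, 9.57, 9.62 and 9.67 in the peer arrays and 9.65, 9.60, 9.57 and 9.62 in the surrogate-peer arrays. All 8 non-maternal arrays were above all 5 maternal arrays, but the gap was small: the 2 highest maternal arrays lay just under the lowest non-maternal ones, and maternal arrays 4 and 5 lay furthest away.

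TOMM20 averaged 9.16 ± 0.37 (SD, n = 5) over the maternal arrays, against 9.64 ± 0.09 (SD, n = 8) over the non-maternal ones. The log2 difference was 0.48 ± 0.13 (SE), with a 95% confidence interval of 0.20 to 0.76, and its limma adjusted p was 0.0440. TOMM20 ranked 1749 of 26352 tested probe sets by p. An exact two-sided permutation test of this gene alone gave p = 0.000777, the smallest value that 5 against 8 arrays allow. That value reflects the same lack of overlap and adds no support to it, and it is not adjusted for the choice of the gene. Groups that did not overlap were found for 1 of the 39 member genes and for 2.87% of all tested probe sets, of which the higher ones made 1.89%.

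The call on TOMM20 stood close to the threshold. With limma it was lost when all probe sets were tested (0.48, adjusted p = 0.0600), when arrays were centred (0.42, 0.0558) or quantile normalized (0.39, 0.0709), and without maternal arrays 2 and 5 (0.53, 0.0858). With the 3' to 5' ratio as a covariate the difference itself was smaller, at 0.30 (0.343). The call was kept with array weights (0.0424) and with the number in the sample title, whose meaning is not stated, as a covariate (0.0272). In these 2 fits 6.06% and 11.9% of all probe sets passed. Leaving out 1 array at a time gave differences of 0.35 to 0.57 and adjusted p-values of 0.0123 to 0.104. The call was lost in 11 of those 13 fits. It was kept only without maternal array 1 or without maternal array 2, where 18.3% and 4.62% of all probe sets passed.

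A further probe set, which the annotation pairs with TOMM20 and another symbol, was therefore no member. It was brighter than the probe set used, with a mean of 11.59 against 9.46. It differed by 0.28 ± 0.11 (SE, limma adjusted p = 0.133) and did not pass. Its groups overlapped, and 5 of its 8 non-maternal arrays lay above all maternal ones. Which transcripts it reads was not tested.

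Against the same maternal arrays, the TOMM20 difference was 0.51 ± 0.15 (SE) for peer animals (limma adjusted p = 0.0837) and 0.45 ± 0.15 for surrogate-peer animals (0.145). Both comparisons share their maternal controls. Peer and surrogate-peer animals differed by -0.06 in TOMM20, surrogate-peer minus peer, with an interval of -0.41 to 0.29.

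**Figure D2:**
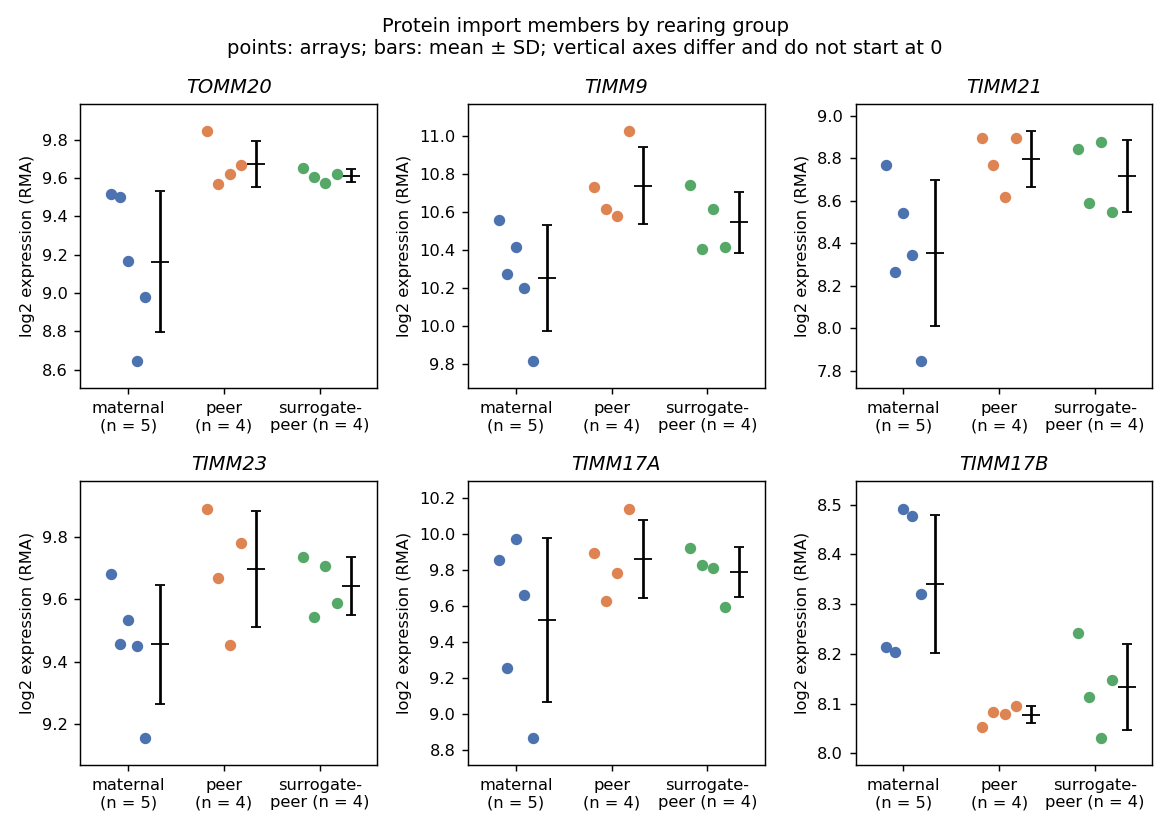
Log2 RMA value of the import genes the results turn on in each of the 13 arrays, by rearing group; points are arrays and bars are group means with the SD. For TOMM20 all non-maternal points, from 9.57 to 9.84, lie above the highest maternal point at 9.51, whereas non-maternal and maternal points overlap for TIMM9, TIMM21, TIMM23, TIMM17A and TIMM17B.

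The other TOM genes gave smaller positive differences, and none passed. TOMM7, a small subunit that modulates the assembly of the complex, had a mean of 13.62 ± 0.30 (SD, n = 5) in maternal and 13.77 ± 0.09 (SD, n = 8) in non-maternal animals, a difference of 0.15. TOMM5, another small subunit, differed by 0.07 on the probe set used and by 0.12, 0.22 and 0.24 on its other 3. TOMM34, a cochaperone that keeps precursors unfolded in the cytosol, differed by 0.11 ± 0.09 (SE). TOMM70, the receptor for carrier precursors, was measured below the filter. TOMM22 and TOMM40 were not analysed here.

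The TIM23 complex gave the largest spread of differences among the import genes, from -0.24 to 0.40. TIMM21 links it to the TOM complex and to respiratory chain assembly. Its values were 8.77, 8.27, 8.54, 8.35 and 7.85 in maternal arrays 1 to 5, 8.90, 8.77, 8.62 and 8.90 in the peer arrays, and 8.84, 8.59, 8.88 and 8.55 in the surrogate-peer arrays. Maternal array 1 lay among the non-maternal arrays and maternal array 5 lay well below all others. The difference was 0.40 ± 0.13 (SE; limma adjusted p = 0.0780). With 1 array left out at a time, it passed in 1 of 13 fits, with limma adjusted p-values up to 0.160. That fit was without maternal array 1 (0.50, adjusted p = 0.0179), where 18.3% of all probe sets passed. TIMM21 also passed there between peer and maternal animals (0.0299), where 13.2% of all probe sets did. The non-maternal difference was 0.20 (0.303) without maternal arrays 2 and 5. It was 0.69 (0.0448) with the 3' to 5' ratio and 0.64 (0.0225) with the title number, where 5.94% and 11.9% of all probe sets passed.

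TIMM23, the channel-forming subunit, had values of 9.68, 9.46, 9.54, 9.45 and 9.16 in the maternal arrays, 9.89, 9.67, 9.46 and 9.78 in the peer arrays, and 9.73, 9.54, 9.71 and 9.59 in the surrogate-peer arrays. The groups overlapped, and the difference was 0.21 ± 0.10 (SE; limma adjusted p = 0.160). Without maternal array 5 it was 0.14 (0.340), without maternal arrays 2 and 5 it was 0.11 (0.494), and with quantile normalization 0.13 (0.394). It was 0.41 (0.0772) with the 3' to 5' ratio and 0.37 (0.0474) with the title number, where 11.9% of all probe sets passed. Its second probe set gave 0.34 ± 0.14. TIMM44, which tethers the import motor to the channel, and TIMM50, the presequence receptor of the complex, differed by -0.01 ± 0.10 and 0.00 ± 0.11.

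TIMM17A and TIMM17B are alternative versions of the same channel subunit, and their differences had opposite signs. TIMM17A had values of 9.86, 9.25, 9.97, 9.66 and 8.87 in the maternal arrays, 9.89, 9.63, 9.79 and 10.14 in the peer arrays, and 9.92, 9.83, 9.81 and 9.60 in the surrogate-peer arrays. Maternal arrays 2 and 5 were low and the other maternal arrays were among the non-maternal ones. The difference was 0.30 ± 0.17 (SE; limma adjusted p = 0.247), and without maternal arrays 2 and 5 it was -0.0034.

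TIMM17B had values of 8.21, 8.20, 8.49, 8.48 and 8.32 in the maternal arrays, 8.05, 8.08, 8.08 and 8.10 in the peer arrays, and 8.24, 8.11, 8.03 and 8.15 in the surrogate-peer arrays. Of the 8 non-maternal arrays, 7 lay below all maternal arrays, and the 4 peer arrays were within an SD of 0.018. How many of all probe sets had 7 of 8 arrays so placed was not counted. The difference was -0.24 ± 0.07 (SE), with an interval of -0.38 to -0.09 and a limma adjusted p of 0.0525. It passed with centred arrays (-0.30, adjusted p = 0.0365), with quantile normalization (-0.32, 0.0365) and without maternal array 1 (-0.27, 0.0255). In these fits 7.32%, 5.06% and 18.3% of all probe sets passed. With any other single array left out TIMM17B did not pass, with limma adjusted p-values up to 0.139. The TIMM17B difference was -0.12 (0.441) with the 3' to 5' ratio and -0.16 (0.146) for the mean of its probe sets. Its other probe set differed by -0.09 ± 0.07. The difference between TIMM17A and TIMM17B was not tested.

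Of the 4 probe sets of TIMM17A, 1 other than the one used did pass: its mean was 6.52 ± 0.42 (SD, n = 5) in maternal and 7.14 ± 0.12 (SD, n = 8) in non-maternal animals. The difference was 0.62 ± 0.15 (SE, limma adjusted p = 0.0317). Of the 8 non-maternal arrays, 7 lay above all maternal arrays, a placing whose share over all probe sets was not counted. A further probe set gave 0.21 ± 0.08 (adjusted p = 0.112). The dimmest was under the filter and had the opposite sign, at -0.51. The probe sets of TIMM17A thus gave unlike values, and which transcripts each of them reads was not tested.

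**Figure D3:**
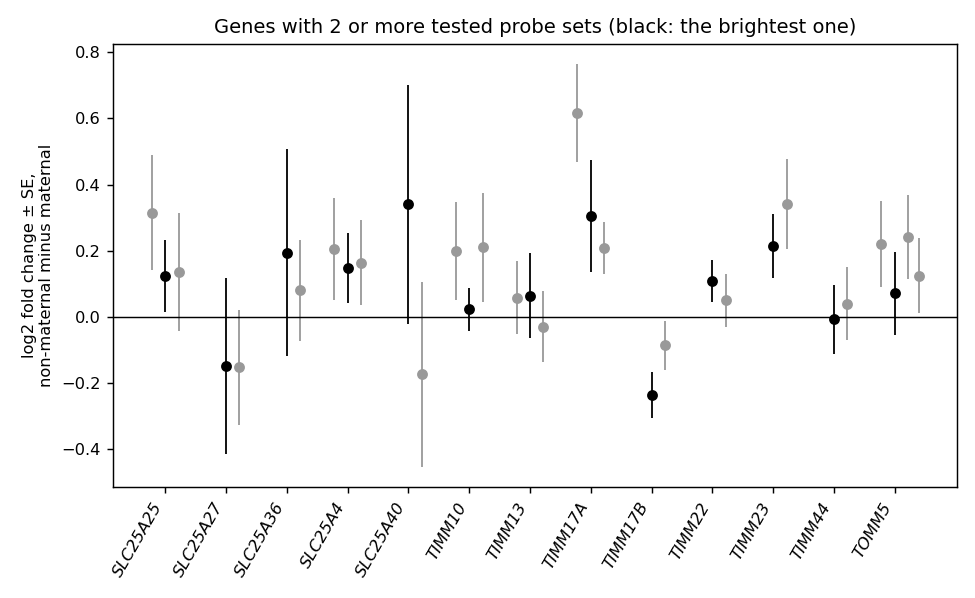
Log2 difference, non-maternal minus maternal, of every tested probe set for the 13 member genes with at least 2 of them; black points are the probe sets used for the gene, grey points the others, and bars the SE. Differences had 1 sign in 10 genes and opposite signs in SLC25A40, TIMM13 and TIMM44; the highest point is a TIMM17A probe set at 0.62, beside the one used at 0.30.

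All 5 tested genes of the TIM22 route had a positive difference, with a median of 0.11, and none passed. Over all tested probe sets 51.0% were positive. The shared sign depended on the processing: TIMM10 and TIMM13 were negative with quantile normalization (-0.032 and -0.022) and without maternal arrays 2 and 5 (-0.015 and -0.076). TIMM9 forms, with TIMM10, the chaperone ring that guards carrier precursors between the membranes. Its values were 10.56, 10.27, 10.41, 10.20 and 9.82 in the maternal arrays, 10.73, 10.62, 10.58 and 11.02 in the peer arrays, and 10.74, 10.41, 10.61 and 10.42 in the surrogate-peer arrays. All 4 peer arrays were above all maternal arrays, and 2 of the 4 surrogate-peer arrays were not. How often 4 arrays lie apart from the maternal ones over all probe sets was not counted.

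The TIMM9 difference was 0.39 ± 0.12 (SE; limma adjusted p = 0.0676), a 1.31-fold ratio, and 0.48 for peer against maternal animals alone (adjusted p = 0.0833). With 1 array left out at a time, it passed in 1 of 13 fits, with limma adjusted p-values up to 0.151. That fit was without maternal array 1 (0.46, adjusted p = 0.0248), where 18.3% of all probe sets passed. The difference also passed with the title number (0.58, 0.0290), where 11.9% of all probe sets did. It was 0.25 (0.239) without maternal arrays 2 and 5. Its partner TIMM10 differed by only 0.02 ± 0.07 on the brightest probe set, while its other 2 gave 0.21 and 0.20. TIMM29, a subunit of the TIM22 complex, differed by 0.25 ± 0.10 (adjusted p = 0.131), from 9.33 ± 0.22 (SD, n = 5) to 9.58 ± 0.13 (SD, n = 8). TIMM22, the channel itself, differed by 0.11 ± 0.06, and TIMM13, a small TIM chaperone, by 0.06 ± 0.13. TIMM8A and TIMM8B, the partners of TIMM13, were not analysed here.

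The nucleotide and phosphate carriers mostly had positive differences, but none passed: 6 of 7 tested genes were positive, with a median of 0.19. SLC25A3 brings phosphate into the matrix for ATP synthesis. Its values were 11.05, 11.61, 11.01, 10.82 and 10.89 in the maternal arrays, 11.29, 11.35, 11.21 and 11.47 in the peer arrays, and 11.25, 11.38, 11.31 and 11.35 in the surrogate-peer arrays. Maternal array 2 was the highest of all arrays and the other 4 maternal arrays were the lowest. The difference was 0.25 ± 0.12 (SE, limma adjusted p = 0.173). With 1 array left out at a time, it passed in 1 of 13 fits, with limma adjusted p-values up to 0.372. That fit was without maternal array 2 (0.38, 0.0312), where 4.62% of all probe sets passed. Without maternal arrays 2 and 5 the difference was 0.37 (0.0631). It was 0.03 (0.927) with the 3' to 5' ratio and 0.12 (0.371) for the mean of its probe sets.

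SLC25A5, an ADP/ATP carrier of dividing cells, had values of 12.10, 12.25, 11.70, 11.81 and 11.74 in the maternal arrays, 12.22, 12.05, 12.01 and 12.28 in the peer arrays, and 12.06, 12.02, 12.27 and 12.02 in the surrogate-peer arrays. Maternal arrays 1 and 2 were high and the other maternal arrays were the lowest of all. The difference was 0.19 ± 0.10 (limma adjusted p = 0.227), and 0.12 (0.656) with the 3' to 5' ratio. SLC25A4, the ADP/ATP carrier of heart and muscle, differed by 0.15 ± 0.11, and by 0.16 and 0.20 on its other probe sets. SLC25A4 and SLC25A5 are alike in sequence, and whether their probes read each other's transcripts was not tested; SLC25A6 was not analysed here.

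The calcium-regulated ATP-Mg/phosphate carriers SLC25A24 and SLC25A25 differed by 0.22 ± 0.15 and 0.12 ± 0.11. The pyrimidine nucleotide carriers gave no common pattern, with -0.11 ± 0.15 for SLC25A33 and 0.19 ± 0.31 for SLC25A36. SLC25A36 varied within every group: it ranged from 9.35 to 10.52 in the maternal arrays, from 9.35 to 11.09 in the peer arrays and from 9.90 to 10.99 in the surrogate-peer arrays.

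**Figure D4:**
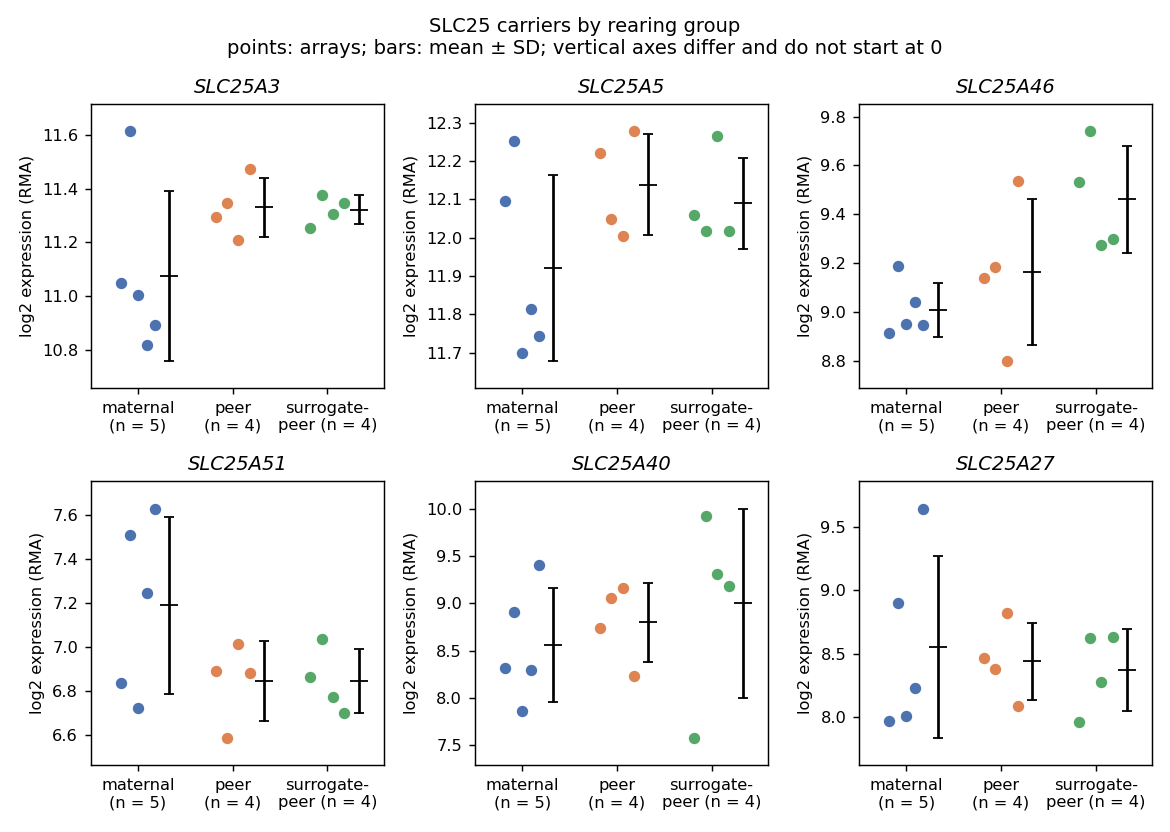
Log2 RMA value of SLC25 carriers named in the text in each of the 13 arrays, by rearing group; points are arrays and bars are group means with the SD. Non-maternal and maternal points overlap in every carrier; maternal array 2, at 11.61, is the highest point of SLC25A3, and the maternal points of SLC25A51 reach 7.63.

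Carriers of organic acids and amino acids mostly had small negative differences, with 1 of 6 tested genes positive and a median of -0.03. SLC25A1 exports citrate, the source of cytosolic acetyl groups for lipid synthesis. It went from 9.84 ± 0.18 (SD, n = 5) in maternal to 9.65 ± 0.12 (SD, n = 8) in non-maternal animals, a difference of -0.19 ± 0.09 (SE; limma adjusted p = 0.179), and -0.06 (0.803) with the 3' to 5' ratio. SLC25A11, which exchanges malate for oxoglutarate, differed by -0.13 ± 0.09. Its partner in the malate-aspartate shuttle, SLC25A13, differed by -0.03 ± 0.13. The dicarboxylate carrier SLC25A10, the glutamate carrier SLC25A22 and the glycine carrier SLC25A38 differed by -0.03, -0.02 and 0.09.

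Among carriers of cofactors, glutathione and iron, 4 of 8 tested genes were positive. SLC25A51 imports NAD into mitochondria. Its values were 6.84, 7.51, 6.72, 7.24 and 7.63 in the maternal arrays, 6.89, 6.58, 7.01 and 6.88 in the peer arrays, and 6.86, 7.04, 6.77 and 6.70 in the surrogate-peer arrays. Maternal arrays 2, 4 and 5 were above all others, and maternal arrays 1 and 3 were not. The difference was -0.35 ± 0.15 (SE; limma adjusted p = 0.153). Without maternal arrays 2 and 5 it was -0.09 (0.686), and with the 3' to 5' ratio it was -0.64 (0.0811). Its close relative SLC25A52 differed by 0.04 ± 0.10; whether probes of the pair read both transcripts was not tested.

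SLC25A39 and SLC25A40, which carry glutathione into mitochondria, differed by -0.11 ± 0.11 and 0.34 ± 0.36. SLC25A40 had the widest range of any tested member, 2.35 over the 13 arrays. Its values were 8.32, 8.91, 7.86, 8.30 and 9.41 in the maternal arrays, 8.74, 9.06, 9.17 and 8.23 in the peer arrays, and 7.58, 9.93, 9.31 and 9.19 in the surrogate-peer arrays. The lowest and the highest array were both surrogate-peer, and a second probe set had the opposite sign, at -0.17. The iron importer SLC25A28 differed by 0.12 ± 0.07, the S-adenosylmethionine carrier SLC25A26 by -0.08 ± 0.12 and the coenzyme A carrier SLC25A42 by 0.01 ± 0.10. SLC25A17, a family member of peroxisomes, differed by -0.06 ± 0.09.

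SLC25A46 belongs to the family but sits in the outer membrane, where it takes part in mitochondrial fusion and fission. Its values were 8.91, 9.19, 8.95, 9.04 and 8.95 in the maternal arrays, 9.14, 9.18, 8.80 and 9.53 in the peer arrays, and 9.53, 9.74, 9.27 and 9.30 in the surrogate-peer arrays. All 4 surrogate-peer arrays were above all maternal arrays, and the peer arrays were spread across both. The difference was 0.31 ± 0.12 (SE; limma adjusted p = 0.115) for all non-maternal animals, 0.45 for surrogate-peer animals (0.121) and 0.16 for peer animals (0.484). The uncoupling protein relatives SLC25A14 and SLC25A27 differed by -0.01 ± 0.11 and -0.15 ± 0.27.

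When each group was set against the maternal animals alone, none of the 39 member genes passed with limma. For peer animals the background was 0.353% of tested probe sets, 4 members and 24.9% of all probe sets had an unadjusted p under 0.05, and the median member difference was 0.10 against 0.00 over all probe sets. For surrogate-peer animals the background was 0%, 6 members and 20.3% of all probe sets had an unadjusted p under 0.05, and the median was 0.03 against 0.01. With 1 array left out at a time, up to 4 and 1 members passed in the peer and the surrogate-peer comparison, both without maternal array 1, where 13.2% and 7.95% of all probe sets passed.

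Peer and surrogate-peer animals differed in 0 members with limma, where 0% of all probe sets were called, and 0 members had an unadjusted p under 0.05, against 1.83% of all probe sets. The largest differences, surrogate-peer minus peer, were 0.32 ± 0.39 (SE) for SLC25A36, 0.30 ± 0.15 for SLC25A46 and -0.27 ± 0.16 for SLC25A13. The interval of SLC25A46 was -0.02 to 0.62, so a difference of that size in either group of 4 was not resolved here. Of the 15 import genes 3 were positive in this comparison, with a median of -0.06, against 50.2% of all probe sets. With the 3' to 5' ratio as a covariate 10 of the 15 were positive, with a median of 0.04, against 54.2% of all probe sets. In the moderated F test over the 3 groups, 0 members and 0.0873% of all probe sets passed.

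**Figure D5:**
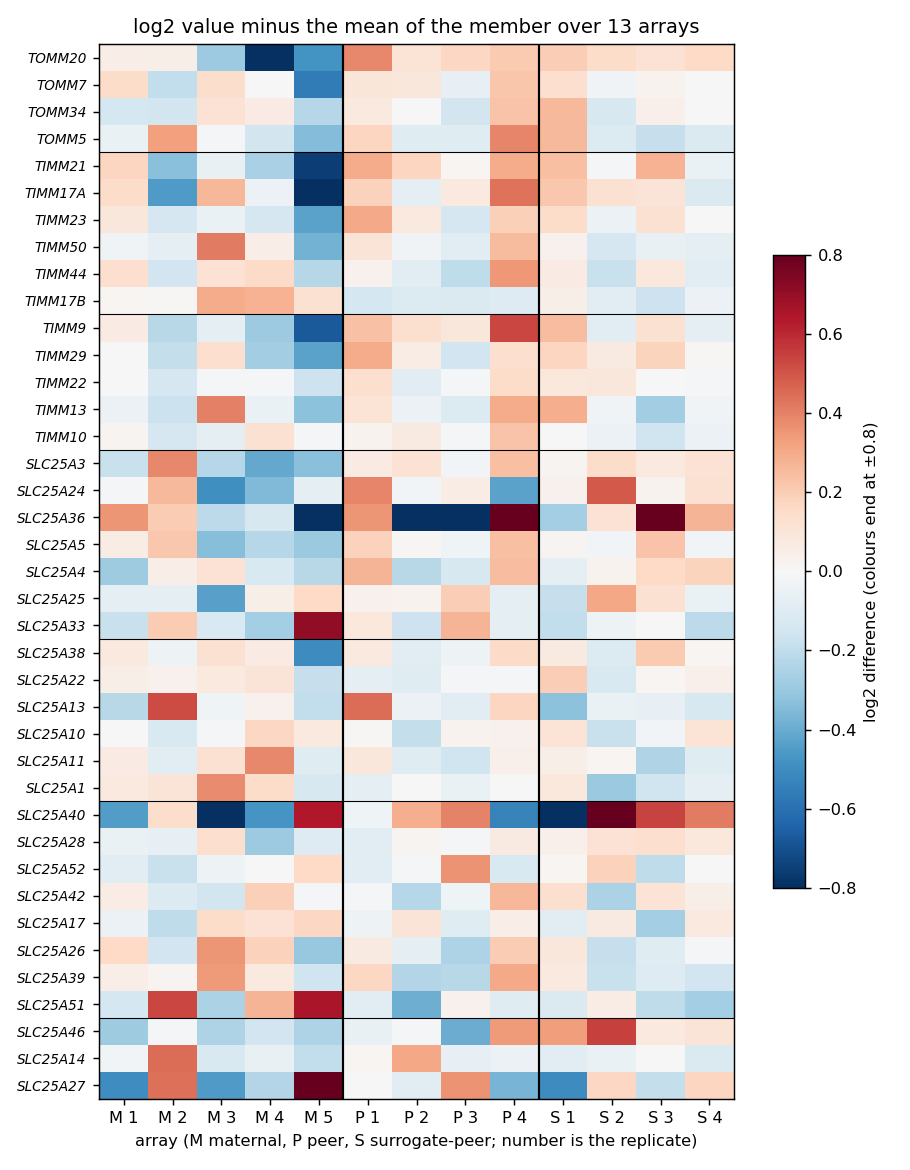
Log2 value of each tested member gene minus its mean over the 13 arrays, with genes in rows by role and arrays in columns by rearing group; the colour scale gives the difference. The column of maternal array 5 is the lowest for 12 of the 15 import genes and for 5 of the 24 SLC25 genes.

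Single arrays stood at the ends of the range for many import genes. Maternal array 5 was the lowest of the 13 arrays for 12 of the 15 import genes, but for 20.8% of all tested probe sets and for 5 of the 24 SLC25 genes. Peer array 4 was the highest for 7 of the 15 import genes and for 7.26% of all probe sets. The mean log2 value of the 15 import genes was 8.96 in maternal array 5, 9.21 to 9.43 in the other maternal arrays, 9.29 to 9.60 in the peer arrays and 9.31 to 9.50 in the surrogate-peer arrays. The maternal SD was the largest of the 3 groups for 24 of the 39 member genes, or 61.5%, and for 57.6% of all tested probe sets. The shared estimate of the spread in the fit therefore averages groups of unequal spread.

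Levels of cell type markers also differed between arrays, and whether they went with the levels of the import genes was not tested. The 4 measured T cell markers had a mean log2 level of 8.37 and 8.38 in maternal arrays 2 and 5, 8.37 to 9.04 over all maternal arrays, 9.001 to 9.21 in the peer arrays and 9.01 to 9.41 in the surrogate-peer arrays. The level of the 8 monocyte markers was highest in maternal array 2 (12.19) and was 11.94 in maternal array 5, within maternal, peer and surrogate-peer ranges of 10.91 to 12.19, 11.03 to 11.68 and 10.89 to 11.99. The level of the 5 measured B cell markers ran from 9.62 to 10.69 in the maternal, 9.27 to 10.18 in the peer and 8.35 to 9.41 in the surrogate-peer arrays, and that of the 6 NK and cytotoxic markers from 9.89 to 11.68, 9.85 to 10.73 and 9.42 to 11.06. Of the latter, 4 of 6 passed with limma, against 8.0% of all tested probe sets, and the list median was -0.94. GZMB, GZMH and NKG7 fell and NCAM1 rose. Of the 4 T cell markers 1 passed: BCL11B rose (limma adjusted p = 0.0313). All 5 B cell markers had a negative difference, with a median of -0.73. Between surrogate-peer and peer animals all 5 had an unadjusted limma p under 0.05, against 1.83% of all probe sets. The B cell, monocyte, platelet, neutrophil, red cell and proliferation lists had 0 members past the test; AHSP and ELANE, which define red cell precursors and immature neutrophils, were under the filter. Their part in the differences of TOMM20 and the other members was not tested, and in mixed cells fewer cells of a type and less RNA per cell cannot be told apart.

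The log2 ratio of 3' to 5' signal of the actin and GAPDH control probe sets, a measure of RNA integrity and labelling, was 1.85 ± 0.28 (SD, n = 5) in maternal and 1.45 ± 0.14 (SD, n = 8) in non-maternal arrays. The difference was -0.40 (exact two-sided permutation p = 0.00466). The values given above with this ratio come from a limma fit that holds it as a covariate; in that fit 53.4% of all tested probe sets were positive.

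Among 37 other genes of import and assembly listed beside the members, 22 were tested. Of these 1, or 4.55%, rose, against 6.64% of all tested probe sets, so the share was not above the background. It was DNAJC19, the cochaperone of the import motor, with a difference of 0.36 ± 0.08 (limma adjusted p = 0.0289). The list had 14 positive genes and a median of 0.09, where 51.0% of all probe sets were positive. GRPEL2, the nucleotide exchange factor of that motor's chaperone, differed by 0.61 (0.0578), and its chaperone HSPA9 by 0.31. MTX2 and MTX3, outer membrane partners of the sorting and assembly machinery, differed by 0.32 (0.0626) and 0.42 (0.0823), and MTCH1, a carrier-like protein of the outer membrane, by -0.53 (0.0740). The processing peptidase subunit PMPCB differed by 0.34.

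Of 32 other genes of mitochondrial transport 16 were tested and 0 passed, with 10 positive and a median of 0.08. The channel proteins VDAC1 and VDAC3 differed by 0.12 and 0.09, UCP2, an SLC25 relative under another name, by -0.19, and TSPO, an outer membrane protein of monocytes and steroid-forming cells, by -0.40. Of 18 regulators of mitochondrial biogenesis 11 were tested. Of these 10 were positive, with a median of 0.28, against 51.0% of all tested probe sets. The 1 that rose made 9.09%, near the 6.64% of all probe sets called higher. It was MYC, a transcription factor of growing cells, with a difference of 0.83 ± 0.21 (limma adjusted p = 0.0355). GABPB1, a subunit of nuclear respiratory factor, differed by 0.48 (0.0578), TFAM, which packages and transcribes mitochondrial DNA, by 0.39 (0.125), and NRF1 by 0.13.

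The genes most like TOMM20 over the 13 arrays, among 14330 named probe sets outside the members, were HPRT1 (Pearson r = 0.967), UHMK1 (0.964), PRKD3 (0.961), ANKIB1 (0.957) and KCTD18 (0.954). HPRT1, the purine salvage enzyme, itself rose by 0.48 (limma adjusted p = 0.0296), and the 5 genes had differences of 0.39 to 0.61. All 5 were past the threshold, against 8.0% of all tested probe sets. TOMM20 was picked because it passed, so genes that follow it this closely could hardly fail to pass. Their calls add no support. These correlations are given as a description, since the same 13 arrays, with their rearing groups and technical differences, underlie every value.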

How the data were processed

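The deposited values are log2 expression, and the submitters' processing notes name RMA; its version and settings, and whether the 13 arrays were normalized jointly, are not stated in the labels. The table held 52865 probe sets; 158 controls were left out, and of the other 52707, 24956 had 1 symbol in the platform annotation, 361 several and 27390 none. Differences were fitted with limma 3.58.1 in R 4.3.3 (lmFit, eBayes) over all 13 arrays, in 3 groups, with Benjamini-Hochberg adjustment over the 26352 tested probe sets. No array was dropped or imputed. Precision is limited by the number of arrays. The non-maternal value averages the 2 group means, and the comparisons with maternal animals share those arrays.

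Members and lists were chosen with earlier results of these data known. Genes named were those past the threshold, the 5 highest and 5 lowest differences of each comparison, a list chosen by role, and genes whose probe sets disagreed; other tested members are named by role with their values. Alternatives were no filter, centring, quantile normalization, array weights, only the arrays compared, other probe set summaries, the 3' to 5' ratio or the title number (of unstated meaning) as covariate, and leaving out each array; leaving out maternal arrays 2 and 5 was added after seeing the data.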

Additional observations from a re-analysis of the deposited data

Results flagged for a closer look

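In 4 of 117 groups of 4 or 5 arrays of a tested member gene, 1 array lay far from the others of its group; chance gives about 1 in 20 such groups. The dicarboxylate carrier SLC25A10 was lowest in peer array 2, at 5.86, where the next peer array had 6.06. SLC25A14 was highest in maternal array 2, at 6.70, against 6.23 for the next maternal array. The glutamate carrier SLC25A22 was lowest in maternal array 5, at 8.03, against 8.25. The glycine carrier SLC25A38 was also lowest in maternal array 5, at 8.04, against 8.504. No cause was tested.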

How the results depend on the processing

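No paired analysis was possible because the labels give no replicate number or pairing shared between groups. For non-maternal against maternal animals, the 1 member past the threshold became 0 with no filter and without maternal arrays 2 and 5. It became 2 when all 59 tested member probe sets were counted (TIMM17A and TOMM20), or 3.39%, against 8.0% of all tested probe sets. With the title number as covariate it was 4 (TIMM9, TIMM21, TIMM23 and TOMM20), where 11.9% of all probe sets passed. When 1 array was left out it was 0 to 4, with 4 without maternal array 1, where 18.3% of all probe sets passed. It was 1 but another gene with centring and quantile normalization (TIMM17B) and with the 3' to 5' ratio (TIMM21). For peer against maternal animals the 0 became 2 with array weights (TIMM17B and TOMM20), 1 with the 3' to 5' ratio (TIMM21), 3 with the title number, and 0 to 4 with 1 array left out; in the first 3 of these fits 5.86%, 5.48% and 6.90% of all probe sets passed. For surrogate-peer against maternal animals and for the F test it was 0 to 1 with 1 array left out. Over all probe sets the calls for non-maternal against maternal animals went from 2107 to 1467 with no filter, 1333 with quantile normalization and 3127 with the title number. Leaving out maternal arrays 2 and 5 gave 37. With 1 array left out the calls ran from 30, without maternal array 4, to 4823, without maternal array 1. Without maternal array 5 alone they were 60, and without peer array 1 alone 309. Centring gave 1928, of which 1094 were higher, against 1751 of 2107.

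The median member difference was 0.0056 with no filter for non-maternal animals. For surrogate-peer animals it was 0.10 over all member probe sets, 0.13 with the 3' to 5' ratio and 0.10 with the title number. Between surrogate-peer and peer animals it was 0.032 with the ratio and 0.061 with the title number. With 1 array left out these medians ran from 0.03 to 0.11, 0.0090 to 0.094 and -0.063 to 0.0057, and from 0.04 to 0.12 for peer animals.

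Signs turned only in members that did not pass. For non-maternal animals, the 3' to 5' ratio gave 0.14 for SLC25A11, 0.086 for SLC25A39, -0.40 for SLC25A40 and 0.23 for TIMM44; the title number gave -0.16 for SLC25A40 and 0.054 for TIMM44; centring gave -0.039 for TIMM10 and -0.060 for TIMM50; quantile normalization gave -0.032 for TIMM10, -0.022 for TIMM13 and -0.093 for TIMM50. Array weights gave -0.051 for TIMM50 and the mean of probe sets 0.017 for TIMM44. Without maternal arrays 2 and 5 the values were 0.063 for SLC25A13, 0.34 for SLC25A27, -0.015 for TIMM10, -0.076 for TIMM13, -0.0034 for TIMM17A and -0.15 for TIMM50. With 1 array left out they ran from -0.0925 to 0.094 for SLC25A13, -0.29 to 0.13 for SLC25A27, -0.0071 to 0.057 for TIMM10, -0.00725 to 0.18 for TIMM13, -0.065 to 0.031 for TIMM44 and -0.092 to 0.11 for TIMM50. For peer animals, SLC25A11 was 0.10 with the ratio, and SLC25A27 was 0.00068 with array weights, 0.37 without maternal arrays 2 and 5, and -0.26 to 0.16 with 1 array left out. For surrogate-peer against maternal animals, SLC25A27 was 0.30 and SLC25A33 0.078 without those arrays, SLC25A27 was -0.33 to 0.0945 with 1 array left out, and SLC25A40 was -0.47 with the ratio and -0.45 with the title number. Between surrogate-peer and peer animals, SLC25A40 was -0.13 with the ratio, -0.57 with the title number and -0.11 to 0.67 with 1 array left out, and the title number gave 0.10 for TIMM9 and 0.12 for TOMM5. Where calls or signs differ, the cause was not tested. The fit on only the arrays compared does not apply to the pooled comparison, which uses every group.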
